A study of Homo sapiens with 6 samples.

Results

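The wide constitutive DNase regions are stretches of open chromatin that carried a called peak in every library and spanned at least 1000 bp. They were found in A549 cells, an established human lung adenocarcinoma line, after 1 h of 100 nM dexamethasone (3 libraries) or of 0.02% ethanol as vehicle (3 libraries). Dexamethasone is a synthetic agonist of the glucocorticoid receptor, and no genotype or other agent separates the groups in the labels. Peaks from the 6 lists that overlapped by 1 bp or more were joined, and each joined region was scored by the libraries with a peak inside it. Of 81216 joined regions, 39934 were called in all 6 libraries and are termed constitutive here. Of these, 3253 (8.15%) had a joined width of at least 1000 bp and are the members described below. They were thus selected on their peak calls and peak widths in all 6 libraries, which are not findings here. The other 36681 constitutive regions, all narrower, serve as the comparison.

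DNase I cuts DNA where nucleosomes are displaced, so a peak marks a promoter, enhancer or other site at which regulatory proteins hold chromatin open. Most open sites are short, and broad open stretches are known from promoters of widely expressed genes and from enhancers with several adjacent sites. The glucocorticoid receptor binds largely to chromatin that is already open before hormone, and ligand can strengthen or weaken such sites. Regions are named by hg19 position, since gene models and sequence of that build were not used here. Whether a member holds a gene start was therefore not analysed.

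The 3 dexamethasone lists held 58360 to 60646 peaks and the 3 ethanol lists 58281 to 61344. Read depth is unknown, because the lists give no read counts. The labels do not say whether the libraries of a treatment came from separate cultures, so p-values measure only the spread between these libraries, which may be technical. Dexamethasone replicate 3 stood apart from the other libraries in the width of its peaks (the widest peak of a member had a median of 733 bp there and 833 to 956 bp elsewhere), and its effect is given beside the treatment differences and several of the counts over all libraries.

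Members made up 3.85 Mb of the 22.6 Mb of constitutive chromatin, or 17.1% of its bases. Their widths ran from 1000 to 2209 bp with a median of 1138 bp, against a median of 454 bp for the narrower regions. Most members were close to the limit, with an upper quartile of 1259 bp, while 178 reached 1500 bp and 7 reached 2000 bp. The 3 narrowest members, each exactly 1000 bp and all on chromosome 1 (starts 32965761, 93250172 and 156307751), had mean folds of 11.2 ± 1.1, 12.9 ± 1.2 and 13.6 ± 0.51 (SD over 6 libraries). The 3 widest constitutive regions that failed the limit, each 999 bp, lay on chromosome 1 (starts 183440782 and 185125734) and chromosome 11 (start 125461883), with mean folds of 9.04 ± 0.58, 13.5 ± 1.2 and 13.2 ± 0.99 (SD over 6 libraries). The fold is the authors' enrichment at a peak's summit over the caller's background for that library.

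The joined width was the width of a single peak in 288 members (8.85%), and the widest peak had a median of 95.7% of the joined width. A single peak of at least 1000 bp was present in at least 1 library for 2261 members (69.5%), and in all 6 libraries for 178 (5.47%). These counts were 2205 without dexamethasone replicate 3, and 262 with such a peak in each of the other 5 libraries. For 992 members no library had such a peak, and the width arose from joining shorter peaks. In 1007 members (31.0%) every library called exactly 1 peak. These are termed unbroken, although the peak need not cover the whole joined width. Leaving dexamethasone replicate 3 aside, 1147 (35.3%) had 1 peak in each of the other 5 libraries. Over all 6 libraries, 2106 members (64.7%) had 1 peak in some and several in others, and 140 (4.3%) had several in every library. By comparison, 91.4% of the narrower regions had 1 peak in every library. The unbroken members were the narrowest and strongest of the 3 classes, with a median width of 1084 bp and a median fold of 11.2. The members broken in every library were the widest and weakest, with medians of 1321 bp and 8.59-fold. The mixed class lay between them at 1162 bp and 10.2-fold. In the unbroken members the ends of the peak moved between libraries by a median of 117 bp on the left and 128 bp on the right, and the shortest of the 6 peaks was in the median 79.4% as long as the longest.

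Each peak in these lists carries a single summit, the position of highest signal, so a region has as many summits in a library as it has peaks. Where neighbouring peaks fuse, the weaker summit is no longer listed. The mean number of summits per member was 1.347, 1.306 and 1.419 in dexamethasone replicates 1 to 3 and 1.385, 1.361 and 1.385 in ethanol replicates 1 to 3. The corresponding values for the narrower regions were 1.025 to 1.03. Dexamethasone replicate 3 had the most summits per member and dexamethasone replicate 2 the fewest, with the ethanol libraries between them. The treatment means of 1.357 ± 0.057 and 1.377 ± 0.014 (SD, n = 3 each) did not differ beyond the spread (exact two-sided permutation p = 0.6, smallest possible 0.1). Without dexamethasone replicate 3 the difference was −0.0504 summits, with both remaining dexamethasone libraries below all ethanol libraries (exact permutation p = 0.1, n = 2 against 3, again the smallest possible). Without dexamethasone replicate 2 the difference had the opposite sign, at 0.00589 summits.

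The bases under peaks ran in the opposite order for the dexamethasone libraries. A member had on average 993 and 1026 bp under peaks in dexamethasone replicates 1 and 2, 867.8 bp in dexamethasone replicate 3, and 945.3, 979.3 and 947.3 bp in ethanol replicates 1 to 3. Dexamethasone replicate 3 was thus the lowest of all and its 2 companions the highest. The means were 962.1 ± 83 bp with dexamethasone and 957.3 ± 19 bp under ethanol (SD, n = 3 in each treatment, exact permutation p = 0.9). Without dexamethasone replicate 3 the difference was 52.0 bp instead of 4.85 bp (exact permutation p = 0.2, n = 2 against 3). The width limit selected on these same peaks, and a library with wide peaks itself lifts regions over it. The treatment comparison over members is therefore a description. In narrower regions the means were 416.9 ± 14 bp with dexamethasone and 417.8 ± 5.4 bp with ethanol (SD, n = 3 each). The narrower regions had 402 bp under peaks in that library and 412.5 to 429 bp in the other 5, so its lower cover extended to them. Single peaks of at least 1000 bp lay in 1129, 1332 and 529 members in dexamethasone replicates 1 to 3 and in 823, 1011 and 821 members in ethanol replicates 1 to 3. The part of read depth in these differences was not tested.

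**Figure D1:**
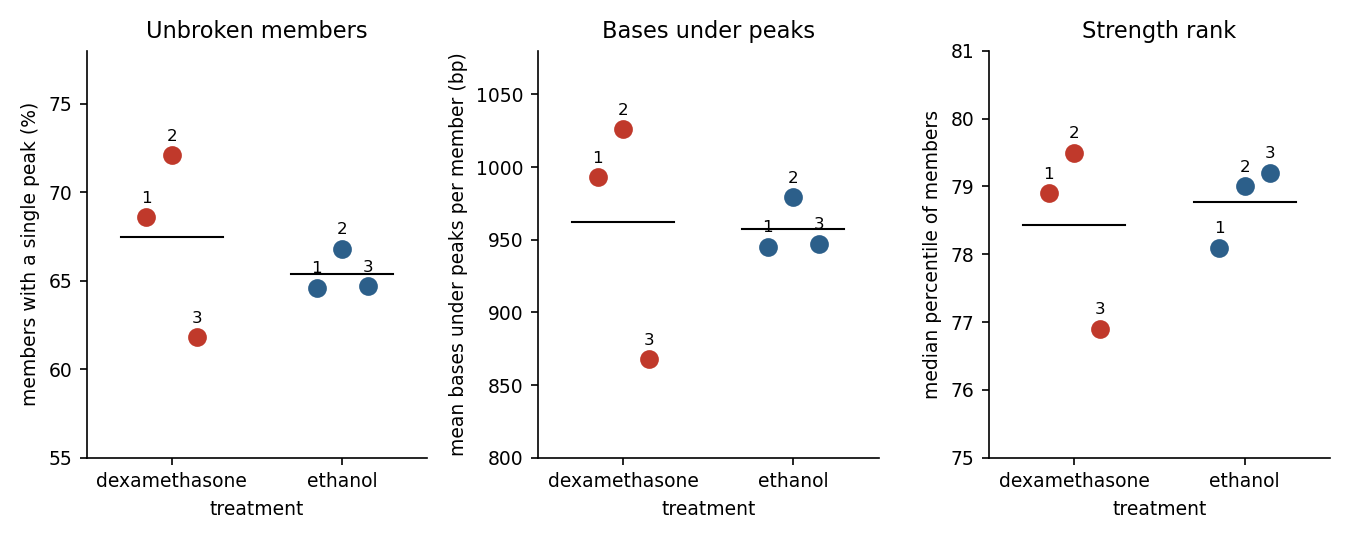
Values of the 3253 wide constitutive regions in each library, by treatment: the share with a single peak (left, %), the mean bases under peaks per region (middle, bp) and the median percentile of strength (right). Points are libraries with their replicate number, black lines are treatment means, and the vertical axes do not start at 0. Dexamethasone replicate 3 is the lowest point in all 3 panels, at 61.8%, 867.8 bp and a percentile of 76.9.

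Summits of the 6 libraries within 100 bp of the next were joined to clusters, so that a cluster is a place where at least 1 library had a point of highest signal. The members held 6922 clusters, a mean of 2.13 per member against 1.14 in narrower regions. There were 810 members with 1 cluster, 1496 with 2, 718 with 3 and 186 with 4. A further 36 members had 5 and 7 had 6. Only part of these clusters recurred everywhere: 39.6% of clusters in members had a summit in all 6 libraries, against 83.1% in narrower regions, and 1637 were seen in a single library. The members held 6613 clusters without dexamethasone replicate 3, of which 42.8% were seen in all 5 remaining libraries. Accordingly 2659 members (81.7%) had at least 1 cluster shared by all libraries, and 81 (2.49%) had 2. The latter share was 3.26% without dexamethasone replicate 3. In those 81 members the paired summits lay 470.5 to 1248.5 bp apart with a median of 774.5 bp. The weaker of the pair reached a median of 0.621 of the fold of the stronger (quartiles 0.454 and 0.82).

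The strongest summit of a member was usually in the same place. In 2324 members (71.4%) the strongest summits of all 6 libraries lay within 100 bp of each other, against 87.1% of narrower regions. The median range was 50 bp in members and 45 bp in narrower regions. The strongest summit was off centre in members, at a median of 33.1% of the way from the centre to the edge, against 12.1% in narrower regions.

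The widest members show how the joined width is made up. The widest of all lay at chr8:81397603-81399811 (2209 bp) and held 6 summit clusters. Its peaks numbered 2, 5 and 5 in dexamethasone replicates 1 to 3 and 2, 3 and 3 in ethanol replicates 1 to 3, and its highest fold was 6.07, 6.4 and 5.79 with dexamethasone and 6.89, 6.02 and 6.17 with ethanol. The values of both treatments overlapped. The next lay at chr11:35639305-35641395 (2091 bp), also with 6 clusters. Its strongest summit stayed at 476 to 514 bp left of the centre in all 6 libraries, at 6.84- to 8.73-fold. The right side of that region had no peak in dexamethasone replicate 3 and 3 further peaks in ethanol replicate 3. The region at chr9:114244982-114247050 (2069 bp) had its strongest summit 652 to 698 bp right of the centre in every library, at 8.32- to 9.33-fold. Other members among the 10 widest were weak throughout: chr12:96183271-96185320 (2050 bp) reached 4.07- to 4.96-fold in the 6 libraries, and no summit cluster of it was seen in all of them. By contrast, chr2:37898117-37900074 (1958 bp) was covered in dexamethasone replicate 2 by a single peak of 1952 bp.

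The remaining members of the 10 widest lay at chr2:27272816-27274852 (2037 bp, 8.99 ± 0.81-fold, SD over 6 libraries) and chr19:56165027-56167048 (2022 bp, 7.66 ± 0.31-fold). They were followed by chr7:128170459-128172459 (2001 bp, 10 ± 0.47-fold), chr6:42749684-42751595 (1912 bp, 5.88 ± 0.52-fold) and chr17:46702336-46704223 (1888 bp, 5.44 ± 0.5-fold). The widest 4 of the 7 members with 6 summit clusters were the first and second widest, the chromosome 7 region, and chr1:245132841-245134726 (1886 bp, 7.72 ± 0.25-fold). None of the 10 widest passed the test of a rank change between treatments described below (limma adjusted p from 0.93 to 1.0).

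**Figure D2:**
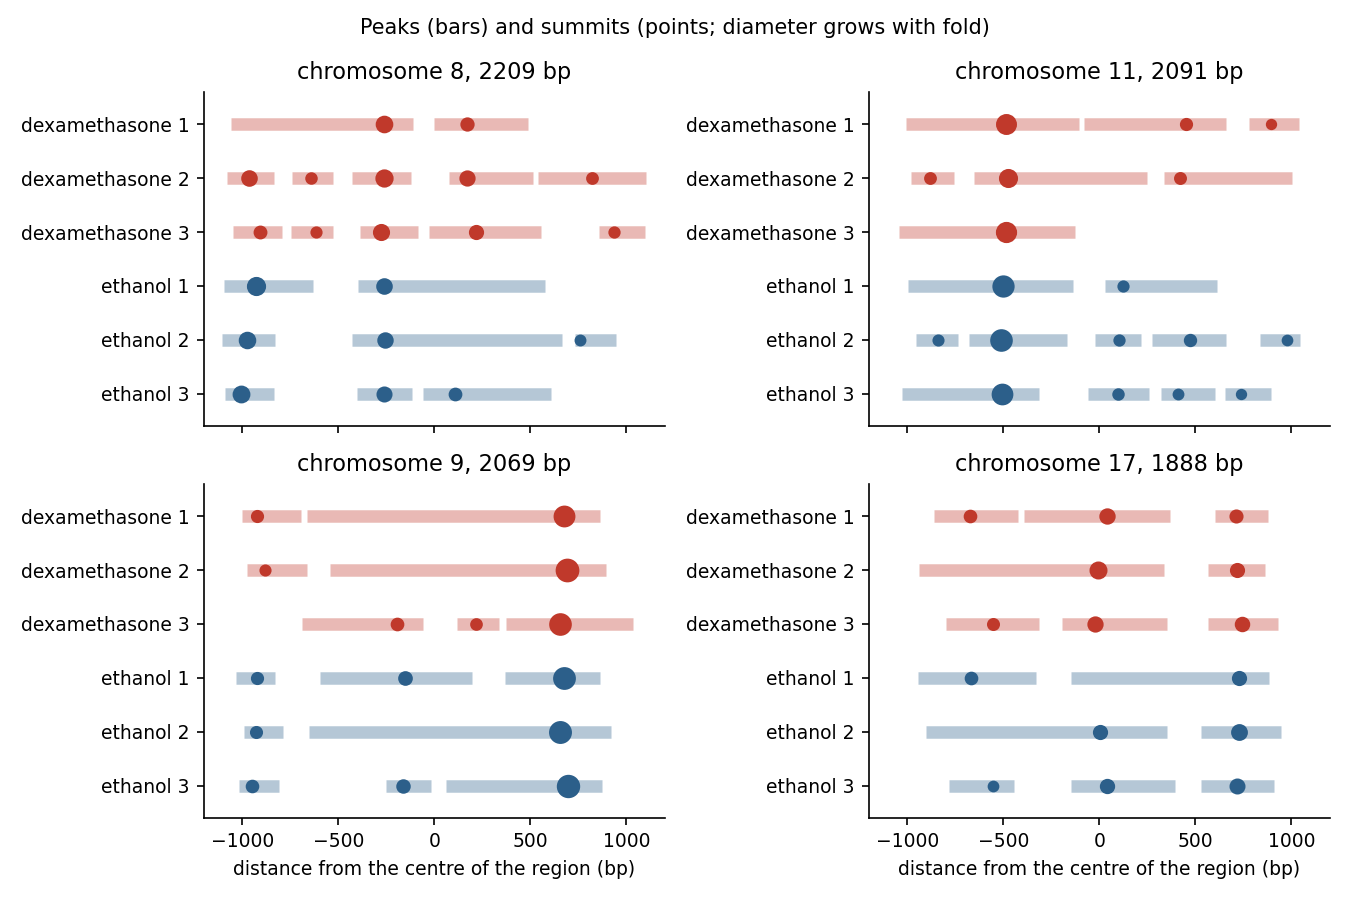
Peaks (bars) and summits (points, diameter growing with fold) in 4 of the 10 widest regions, drawn by library against the distance from the region's centre (bp). Dexamethasone libraries are red and ethanol libraries blue. The chromosome 11 and chromosome 9 regions keep their strongest summit in place in all 6 libraries, whereas on chromosome 8 and chromosome 17 the largest point lies elsewhere with dexamethasone than with ethanol.

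Strength was described by the highest −log10 q of a region in a library, expressed as a percentile among the 39934 constitutive regions of that library. These values come from the same peaks as the widths that chose the members, so the comparison with narrower regions is a description. The median percentile of a member over libraries was 78.7 (quartiles 60.6 and 89.7), against 46.0 (23.8 and 71.4) for narrower regions. The median fold was 10.5 (quartiles 8.12 and 12.6) against 8.36 (6.61 and 11). Members, 8.15% of the constitutive regions, supplied 66 of the 399 regions (16.5%) in the strongest 1%, 20.3% of the strongest 10% and 18.8% of the strongest 25%. The highest median fold of any member was 18.9, against 31.9 for a narrower region. At the low end, 547 members (16.8%) had a median percentile below 50, 186 (5.72%) below 25 and 57 (1.75%) below 10. Of the 186 members below 25, only 9 were unbroken in every library.

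Median fold rose with width among narrower regions, from 7.43 at 250 to 399 bp to 11.3 at 850 to 999 bp. It stayed at 11.3 for members below 1150 bp and was then lower in each wider class: 10.1 below 1300 bp, 9.35 below 1450 bp, 9.04 below 1600 bp and 7.99 in the 88 members of 1600 bp or more. Over the same classes the mean number of peaks per library went from 1.25 to 1.98. Spearman's rho between width and median fold was −0.23 over the 3253 members and 0.41 over the 36681 narrower regions. All these regions share the same 6 libraries and background estimates, and no p-value is given.

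**Figure D3:**
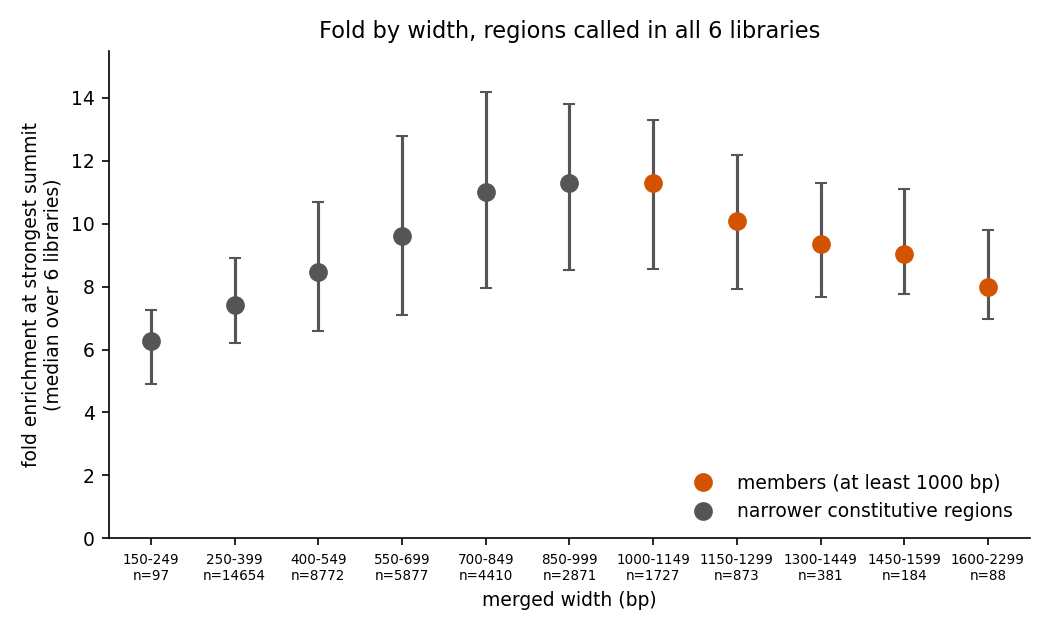
Fold enrichment at the strongest summit (median over 6 libraries) of constitutive regions in classes of joined width (bp), with the number of regions under each class. Points are class medians and bars span the quartiles. The median climbs to 11.3 in the classes on either side of 1000 bp and is 7.99 in the widest class.

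The comparison of treatments asked whether these broad sites gained or lost strength relative to other constitutive regions within 1 h of dexamethasone. A percentile is a rank within a library, so a change shared by all constitutive regions would not show in it. As a group the members did not move beyond the spread between libraries, in an exact test that cannot fall below 0.1. Their median percentile was 78.9, 79.5 and 76.9 in dexamethasone replicates 1 to 3 and 78.1, 79.0 and 79.2 in ethanol replicates 1 to 3, so the treatments overlapped. The means were 78.43 ± 1.3 and 78.76 ± 0.56 (SD, n = 3 each, exact permutation p = 0.8). Without dexamethasone replicate 3 the difference changed sign to 0.432 points (exact permutation p = 0.6, n = 2 against 3). The median fold was 10.7, 10.9 and 10 with dexamethasone and 10.2, 10.6 and 10.5 with ethanol. Its means of 10.52 ± 0.46 and 10.4 ± 0.21 overlapped as well (SD, n = 3 each, exact permutation p = 0.7), and in narrower regions they were 8.393 ± 0.29 and 8.445 ± 0.16. Without dexamethasone replicate 3 the difference in median fold was 0.385 in place of 0.125 (exact permutation p = 0.2, n = 2 against 3).

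Single members were tested with limma on normal scores of their rank, fitted over all 39934 constitutive regions with Benjamini-Hochberg adjustment. A normal score places a rank on the scale of a standard normal distribution, so that 1 unit is 1 SD of the scores. The same unit covers more percentile points near the middle than at the ends. One member of 3253 was called stronger with dexamethasone (0.0307%) and 0 were called weaker at an adjusted p under 0.05. Over all constitutive regions 0.195% were called stronger and 0.01% weaker. At an unadjusted p under 0.05, limma gave 75 members as stronger (2.31%) and 57 as weaker (1.75%), against 3.29% and 3.14% of all constitutive regions. Equally numbered libraries deviated together, and with the replicate number as a block limma called 8 members stronger (0.246%) and 2 weaker (0.0615%), against 0.553% and 0.155% of all constitutive regions. The members' shares were thus below the background in both directions of the blocked fit. With the mean over a region's peaks ranked in an unblocked fit, limma called 2 members stronger (0.0615%, background 0.0901%) and 2 weaker (0.0615%, background 0.02%). At an unadjusted p under 0.05 that fit gave 5.16% of members as stronger and 3.81% as weaker, above the 3.34% and 3.02% of all constitutive regions.

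The spread of the differences was also narrower in the members. The central 90% of score differences lay from −0.28 to 0.31 in members and from −0.52 to 0.53 in narrower regions, with median standard errors of 0.16 and 0.24. The spread was smaller in stronger regions: among those with a median percentile above 75, the SD of the score difference was 0.16 in both the 1853 members and the 7934 narrower regions. Between percentiles 25 and 50 it was 0.26 in 361 members and 0.36 in 10161 narrower regions, and up to 25 it was 0.3 in 186 members and 0.47 in 9712 narrower regions. Differences beyond 0.5 in either direction were found in 5.26% of members and 13.1% of narrower regions between percentiles 25 and 50. All 3 dexamethasone percentiles exceeded all 3 ethanol percentiles in 167 members (5.13%), and the reverse held in 130 (4.0%). The same was seen in 5.79% and 5.62% of all constitutive regions. Without dexamethasone replicate 3, upward separation was found in 494 members (15.2%) and 12.3% of all constitutive regions, which turns the order of the 2 shares. Downward separation was then found in 257 members (7.9%) and 11.7% of all constitutive regions.

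The width that chose the members came from the peaks of both treatments joined. The peaks of either treatment taken on its own spanned at least 1000 bp in 2159 members (66.4%), those of dexamethasone alone in 508 (15.6%), those of ethanol alone in 418 (12.8%) and those of neither in 168 (5.16%). Among the 2159 members, 110 (5.09%) had all dexamethasone percentiles above ethanol and 86 (3.98%) below, limma called 0 in the unblocked fit, and with the block it called 3 stronger and 1 weaker. A member that reached the limit through a single treatment was chosen in part by its values there. Its peak widths, percentiles, folds and p-values are therefore given below as a description. These counts were chosen after seeing the data.

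The called member lay at chr7:158656016-158657126 (1111 bp), and its next member was 34.2 kb away. Its percentiles were 72.3, 63.3 and 69.9 with dexamethasone and 22.3, 14.7 and 24.0 with ethanol. Every dexamethasone library was thus far above every ethanol library. It had a single peak in each of the 6 libraries, of 947, 1097 and 1111 bp with dexamethasone and 909, 877 and 905 bp with ethanol. The dexamethasone peaks together spanned 1111 bp and the ethanol peaks 996 bp, so that it reached the width limit only through the treatment in which it was stronger. The fold at its summit was 8.68 ± 0.29 against 6 ± 0.38 (SD, n = 3 each). The score difference was 1.32 ± 0.23 (SE, limma adjusted p = 0.01), and the replicate block gave an adjusted p of 0.00039 in limma. Since the dexamethasone peaks helped to choose this member, both p-values describe it and are not independent of its selection. Without dexamethasone replicate 1 or 2 the score difference was of similar size, at 1.27 and 1.39, but the call was lost in limma with fewer libraries (adjusted p = 0.12 and 0.095). It was also lost when folds were ranked instead of −log10 q (score difference 0.97, adjusted p = 0.29). With plain percentiles in place of normal scores, limma called 0 members (lowest adjusted p = 0.0884).

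Of the 6 members with the largest positive differences among those whose treatments did not overlap, the other 5 did not pass the unblocked limma test. At chr20:42815438-42816715 the percentiles were 40.3, 54.6 and 69.1 with dexamethasone and 4.91, 33.0 and 19.9 with ethanol (score difference 1.1 ± 0.31, SE, limma adjusted p = 0.24, with the block 0.029). At chr11:111382965-111384021 they were 40.6, 30.7 and 18.9 against 5.76, 2.43 and 12.1, so this wide site was weak in both treatments. It reached the width limit only through ethanol, with peaks spanning 1055 bp there and 899 bp with dexamethasone. At chr18:3593392-3594558 a summit 44 to 48 bp right of the centre, present in every library, measured 7.99-, 7.92- and 8.11-fold with dexamethasone and 5.4-, 5.36- and 6.41-fold with ethanol. The limma adjusted p was 0.53 for the chromosome 11 region and 0.31 for the chromosome 18 region, and neither passed with the block (0.28 and 0.11). At chr1:86094423-86095628 the percentiles were 57.4, 67.8 and 62.2 against 21.3, 26.3 and 40 (limma adjusted p = 0.15, with the block 0.033).

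The member at chr10:99355769-99356802 had a left and a right summit. The right one, 270 to 331 bp from the centre, had a fold of 9.15, 8.11 and 10.5 in dexamethasone replicates 1 to 3 and of 4.85, 7.32 and 5.84 in ethanol replicates 1 to 3. The left summit, 298 to 350 bp from the centre, had 5.64-, 7.37- and 7.31-fold in the ethanol libraries. With dexamethasone it was listed in replicate 1 alone, at 4.89-fold, since replicates 2 and 3 each called a single peak of 993 and 996 bp over both positions, so its level there is not listed. The right summit was the strongest with dexamethasone in all 3 libraries, and the left with ethanol in all 3. The percentile of the region was 68.3 ± 11 with dexamethasone and 35.7 ± 15 with ethanol (SD, n = 3 each, limma adjusted p = 0.15, with the block 0.016). Its peaks spanned 1012 bp with ethanol and 998 bp with dexamethasone, so it reached the width limit only through ethanol.

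Among the 6 members with the largest negative differences, 2 lay close together on chromosome 17. At chr17:39948986-39950072 the percentiles were 20.1, 16.6 and 5.92 with dexamethasone and 61.0, 44.9 and 45.9 with ethanol. Its fold was 5.33 ± 0.4 with dexamethasone and 8.01 ± 0.68 with ethanol (SD, n = 3 each). Ethanol libraries covered it with a single peak each, whereas dexamethasone replicates 2 and 3 called 2 shorter peaks. The score difference was −1.14 ± 0.3 (SE, limma adjusted p = 0.18, with the block 0.038). Its ethanol peaks spanned 1076 bp and its dexamethasone peaks 802 bp, so that it reached the width limit only through ethanol. The other, chr17:39933364-39934404, had percentiles of 41.9, 26.0 and 35.9 against 69.1, 42.2 and 60.8 (limma adjusted p = 0.6). It too reached the width limit only through ethanol, with peaks spanning 1038 bp there and 995 bp with dexamethasone. Between the 2 members lay a narrower constitutive region, chr17:39942461-39943386, whose percentiles of 98.7 to 99.5 in the 6 libraries overlapped between treatments (score difference 0.01 ± 0.21, SE). On the far side of the second member, the narrower chr17:39929401-39929817 had percentiles of 22.6, 35.9 and 36.5 with dexamethasone and 55.8, 54.3 and 48.0 with ethanol, without overlap (score difference −0.55 ± 0.24, SE, limma adjusted p = 0.68). A further member nearby, chr17:39956877-39958186, overlapped between treatments, with 62.1, 68.8 and 62.1 against 76.0, 65.9 and 69.6. These neighbours were looked at after the values of the first were seen.

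The remaining 4 with large negative differences lay apart. At chr7:73508269-73509465 the percentiles were 27.4, 46.6 and 53.3 with dexamethasone and 71.9, 71.7 and 71.1 with ethanol, the tightest ethanol values of the 12 named regions (score difference −0.77 ± 0.19, SE, limma adjusted p = 0.13, with the block 0.022). Those at chr7:20369767-20370942, chr10:12447325-12448359 and chr20:36780597-36781623 had mean percentiles of 16.2, 6.18 and 18.5 with dexamethasone and 34.9, 16.9 and 37.4 with ethanol. Their limma adjusted p-values were 0.8, 0.88 and 0.81, and with the block 0.57, 0.74 and 0.6. All 3 were weak members in both treatments.

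**Figure D4:**
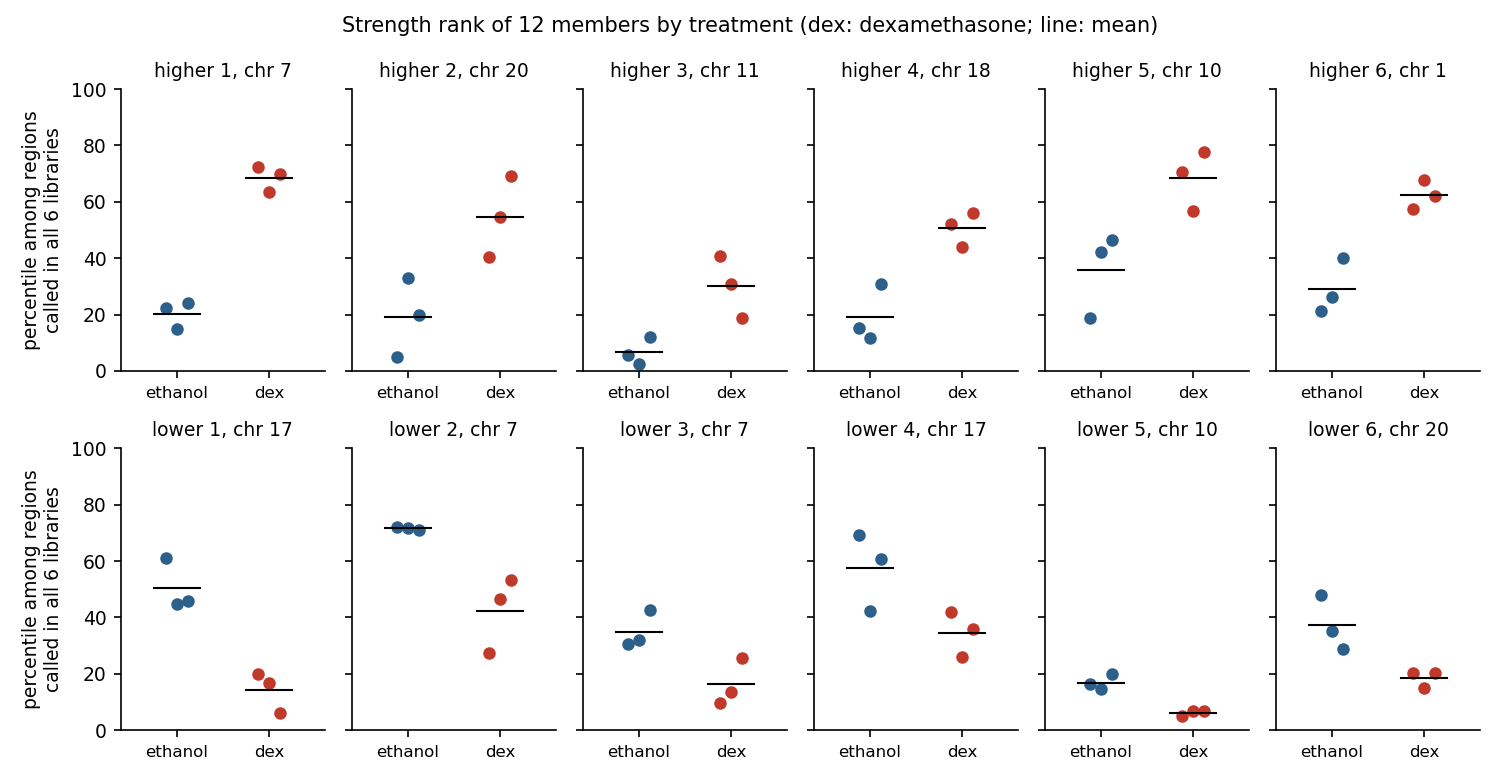
Percentile of strength among constitutive regions in each library (points) for the 12 wide regions with the largest positive (top row) and negative (bottom row) differences among those whose treatments do not overlap, with the mean of each treatment as a line. Only the first region of the top row, on chromosome 7, passed the unblocked limma test. The regions were picked for these differences.

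With the replicate block, limma called 4 further members stronger with dexamethasone that the rule for named regions did not include, and these are named after seeing their values. At chr2:176045636-176046707, a strong site, the fold was 17.9 ± 0.39 with dexamethasone and 15.4 ± 0.84 with ethanol (SD, n = 3 each, blocked limma adjusted p = 0.039). That site reached the width limit only through ethanol, with peaks spanning 1072 bp there and 891 bp with dexamethasone. Its widest peak was 1047 bp, in ethanol replicate 2. At chr9:90690916-90692127 the fold was 11.1 ± 0.71 with dexamethasone and 8.87 ± 0.15 with ethanol (SD, n = 3 each, blocked limma adjusted p = 0.04). This member had 1 peak in all libraries, 1142 to 1190 bp long with dexamethasone and 1000 to 1183 bp with ethanol. At chr17:78037725-78038730 the percentiles were 85.5, 86.4 and 87.4 with dexamethasone and 61.6, 79.2 and 65.5 with ethanol (blocked limma adjusted p = 0.024). At chr2:223621153-223622203 they were 69.3, 60.3 and 74.7 with dexamethasone and 19.2, 49.2 and 46.2 with ethanol (blocked limma adjusted p = 0.033). Both regions reached the width limit only through dexamethasone, with ethanol peaks spanning 750 bp and 368 bp, so the bases under their peaks are not compared. On chromosome 2, dexamethasone replicate 3 alone called a second peak, and no single peak exceeded 530 bp of the joined 1051 bp.

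In 11 members (0.34%) the strongest summit lay in one place in the 3 dexamethasone libraries and in another, over 100 bp away, in the 3 ethanol libraries, against 0.115% of all constitutive regions. A region cannot hold a gap wider than itself, and the part of width in this difference was not tested. The largest gap, 680 bp, was at chr17:46702336-46704223. There the strongest summit was 38, −5 and −20 bp from the centre with dexamethasone (5.39-, 6.27- and 5.34-fold) and 727, 725 and 718 bp from it with ethanol (4.77-, 5.64- and 5.2-fold). Both summits were listed in both treatments: the right one had 4.19-, 4.74- and 4.92-fold with dexamethasone, and a central one 4.76- and 4.82-fold in ethanol replicates 2 and 3. The order of the 2 summits thus turned between treatments while both stayed called in most libraries. The second gap, 651 bp, was in the widest member on chromosome 8, where the strongest summit lay at −263, −263 and −277 bp from the centre with dexamethasone and at −928, −977 and −1006 bp with ethanol. The chromosome 10 member described above came next at 624 bp. At chr6:137113019-137114462 the strongest summit lay 515 to 554 bp right of the centre with dexamethasone and within 41 bp of it with ethanol, at 6.78- to 8.45-fold and 8.36- to 10.4-fold.

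Summit clusters confined to a treatment were few. Of the 6922 clusters in members, 31 (0.448%) had summits from each dexamethasone library and none from ethanol, and 41 (0.592%) the opposite. Over all constitutive regions the shares were 0.212% and 0.236%. Such a cluster is by definition seen in exactly 3 libraries. Clusters seen in 3 libraries numbered 580 in members. Among the 41753 clusters of narrower regions there were 959, of which 72 were confined to dexamethasone and 74 to ethanol. The higher shares in members are therefore not read as a treatment difference, and no test was made. In most cases the position was still under a peak of the other treatment. For 21 of the 31 dexamethasone clusters all 3 ethanol libraries had a peak over the position, and for 23 of the 41 ethanol clusters all 3 dexamethasone libraries had one. Only 3 dexamethasone and 2 ethanol clusters lay where the other treatment had no peak at all.

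Members were found on every chromosome, with 3187 on autosomes, 65 on X and 1 on Y. As a share of constitutive regions they ranged over the autosomes from 4.9% on chromosome 22 (45 of 919, exact Clopper-Pearson 95% interval 3.59 to 6.5%) to 10.5% on chromosome 15 (166 of 1584, 9.01 to 12.1%). The median autosome had 8.01%. Chromosome 2 held the most members (306 of 3136, 9.76%, 8.74 to 10.9%), followed by chromosome 1 (278 of 3846, 7.23%, 6.43 to 8.09%) and chromosome 17 (254 of 2698, 9.41%, 8.34 to 10.6%). Chromosomes 2, 15 and 17 had intervals above the overall 8.15%, and chromosomes 1 and 22 had intervals below it. The intervals cover counting error only and treat regions as independent.

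**Figure D5:**
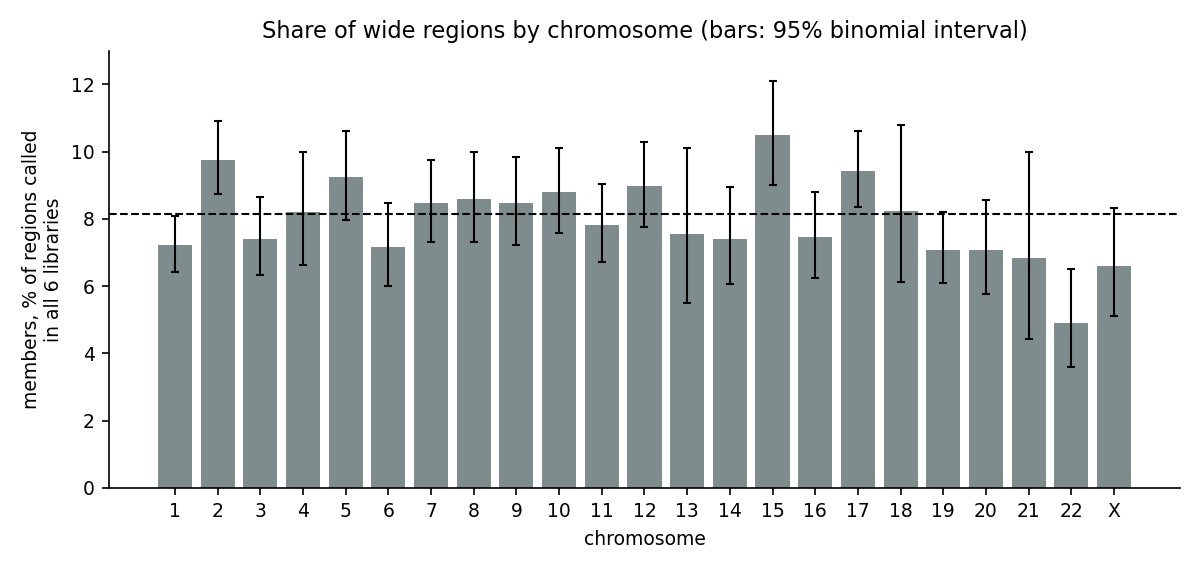
Wide regions as a percentage of all regions called in all 6 libraries, by chromosome, with 95% binomial intervals and a dashed line at the overall share of 8.15%. Chromosome Y, with 1 wide region, is not drawn. Chromosome 15 has the highest bar at 10.5% and chromosome 22 the lowest at 4.9%.

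The median distance to the nearest member was similar from members and from narrower regions, but a smaller share of members had another member close by. The median distance from a member to the nearest other member was 161 kb, and from a narrower region to the nearest member 172 kb. Another member lay within 50 kb of 580 members (17.8%), and a member lay within 50 kb of 19.7% of narrower regions. Within 10 kb the shares were 1.54% and 2.88%. To the nearest constitutive region of any width the median distance was 18.4 kb from members and 11.2 kb from narrower regions, so that the typical gap around a member was longer. In the outer 10% at each end of the chromosomes' peak span lay 24.9% of members and 27.3% of narrower regions.

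Of the 2517 bins of 1 Mb that held a constitutive region, 1480 (58.8%) held a member and 129 held at least 5. The richest had 12 each: chr16:30000001-31000000 (12 of 70 constitutive regions) and chr17:7000001-8000000 (12 of 73). A bin on chromosome 19, 38000001 to 39000000, had 11 members among only 41 constitutive regions (26.8%). Bins were picked for their number of members.

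Regions called with a single treatment were located relative to the members. Of the 897 regions called in each dexamethasone library but not with ethanol, 178 (19.8%) had a member within 50 kb, and of the 538 regions with the reverse pattern 87 (16.2%) did. Seen from the members, 189 (5.81%) had a dexamethasone-only region within 50 kb, against 6.89% of narrower constitutive regions. Within 5 kb there were 10 members (0.307%) against 0.799% of narrower regions. For ethanol-only regions the shares within 50 kb were 2.86% of members and 3.67% of narrower regions. No test was made of these shares, and the wider gaps around members stand beside them.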

How the data were processed

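DNase-seq was measured in 6 A549 libraries, 3 per treatment. CASAVA 1.3, Bowtie, bedtools and MACS2 2.1.0 and the build hg19 are named per the submitters' processing notes, and settings are not given in the sources used here. The deposited files are 1 peak list per library. In the MACS2 layout the deposited ratio (column 7) is fold enrichment at the summit, the deposited −log10 p and −log10 q-value (columns 8 and 9) belong to each list, the deposited score is −log10 q times 10 (judged from the values), and the last column is the summit's offset. Lists were compared by rank over regions called in all 6, which have equal number in each library. Where no peak is called, the signal missed the caller's threshold. Read depth is unknown. No 2 lists were identical.

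Regions and summits were handled in Python 3.11.15 with pandas 2.3.3, and limma 3.58.1 (trended empirical Bayes, R 4.3.3) was fitted without a block. The code was tested on simulated data. Library values were compared by exact two-sided permutation (smallest p 0.1, or 0.25 for pairs). Replicate numbers come from the sample titles. Deviations from the treatment mean correlated at 0.208, 0.124 and 0.147 between equally numbered libraries over constitutive regions, and at −0.163 to −0.00201 between others. These deviations are centred within each treatment, so positive values between equal numbers bring negative ones between others. The labels do not say whether equal numbers mark pairs, so main results are unpaired and unblocked, with the block as an alternative. Taken as pairs, library values had exact permutation p of 0.5 or more (0.5 for summits per member, 0.75 for median fold).

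Named regions are the 10 widest, the 6 with the largest positive and 6 with the largest negative difference whose treatments do not overlap, the 4 with most clusters, and 3 on each side of the width limit. Members and lists were chosen with earlier results of these data known. Alternatives were other widths, gaps, peak thresholds, joining distances, strength measures, windows, a replicate block and leaving out each library. Gene starts, gene lists and motifs were planned but not analysed here, as no hg19 annotation or sequence was used. Positions count from 1.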

Additional observations from a re-analysis of the deposited data

How the results depend on the processing

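The number of wide constitutive regions followed the definition: 7382 at 800 bp, 1139 at 1200 bp and 178 when a single peak of 1000 bp was required in every library. It was 2836 to 3091 without 1 library (chosen after seeing the data). Limma calls of stronger members (1) became 0 with ranked folds (0.0225% of all constitutive regions called) or plain percentiles (0.0326%), 2 with the mean over peaks (0.0901%), 8 with the replicate block (0.553%) and 0 to 1 without 1 library (0.02 to 0.2%, 0 members without dexamethasone replicate 1 or 2). Weaker members (0) became 2 with the mean over peaks (0.02%), 2 with the block (0.155%) and 0 to 1 without 1 library (0 to 0.0426%, 1 member without dexamethasone replicate 3). The block changed no other call. The 12 regions named for their rank kept their direction under every alternative run for them, and the call of chr7:73508269-73509465 was gained without dexamethasone replicate 3. Members whose treatments did not overlap numbered 281 to 494 upward (9.78 to 12.3% of all constitutive regions) and 257 to 345 downward (9.73 to 11.7%) without 1 library, where 2 are set against 3 (most upward without dexamethasone replicate 3).

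Without 1 library the difference ranged from −0.856 to 0.432 points in median percentile, from −0.0493 to 0.385 in median fold, from −0.0504 to 0.00589 in summits per member and from −26.9 to 52.0 bp in bases under peaks, and the mean percentile differed by 0.324 points. The exact test cannot reach the threshold for any of these, with 3 libraries against 3 or with 2 against 3. Members with at least 2 summit clusters were 78.2% when joining within 50 bp, 73.1% at a −log10 q of at least 5 and 71.3 to 73.3% without 1 library. With at least 2 in every library they were 1.63% when joining within 50 bp and 3.26 to 4.43% without 1 library, where fewer libraries must share a summit. Another member within 50 kb was found for 8.6% of members of 1200 bp or more, and for 1.54% within 10 kb. The cause of these shifts was not tested.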

Other observations

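In 5 wide regions a summit cluster of a single treatment lay where the other treatment had no peak, and all 5 clusters were weaker than the strongest summit of their region. With dexamethasone these were at chr15:59063024-59064459 (cluster median 3.54-fold in a region of 12.3-fold), chr9:115248625-115250016 (3.52 and 12.5-fold) and chr11:75062269-75063597 (3.1 and 7.24-fold). With ethanol they were at chr2:64245763-64247106 (3.37 and 7.12-fold) and chr8:42995156-42996625 (3.28 and 11.7-fold). Each cluster lay 508 to 582 bp to the right of its region's centre. They were picked from all clusters for this pattern, and no test was made.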
